A study of Homo sapiens with 4 samples.

Results

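Leukocyte integrins and adhesion receptors were followed in MV4-11 cells after knockdown of IRF1. The set held 10 genes, chosen by name from 23622 genes in the deposited table. It comprised the beta2 integrin genes ITGAM, ITGAX, ITGAL and ITGB2, the alpha4, alpha5, beta1 and beta7 integrin genes ITGA4, ITGA5, ITGB1 and ITGB7, and the adhesion receptor genes PECAM1 and CD44. All 10 genes were detected in every library. MV4-11 is a human acute myeloid leukemia (AML) cell line, and IRF1 is a transcription factor of the interferon regulatory factor family. The 2 control libraries (sh-NC) carry the title NC, genotype WT and no treatment in the sample labels, whereas the study's methods describe a control hairpin. The 2 knockdown libraries (sh-IRF1) have genotype WT and the treatment IRF1 knockdown. Per the methods, the cells were infected with lentivirus carrying a short hairpin RNA in the pLKO.1 vector and were selected with puromycin, so each library came from a selected pool of 1 cell line. The sources used here do not say which IRF1 hairpin each knockdown library carried, or whether the libraries came from separate cultures, so the p-values measure only the spread between these libraries.

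Integrins are membrane receptors made of an alpha and a beta subunit, which reach the cell surface as a pair and link the cell to matrix proteins or to other cells. The pairs named here are those within the set, and subunits outside it were not paired. The beta2 subunit is confined to leukocytes and, within the set, pairs with alphaL (LFA-1), alphaM (Mac-1) or alphaX. Within the set, the beta1 subunit pairs with alpha4 (VLA-4) or alpha5 (the classical fibronectin receptor). There alpha4 also pairs with beta7 to form the gut-homing receptor. Through these receptors and through CD44, which binds hyaluronan, AML cells attach to the marrow stroma.

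The libraries were of like depth. The deposited values are here called normalized counts. They are on a scale on which each value was a whole multiple of the smallest value above 0 of its library. Taken as reads, these multiples summed to between 17635908 and 18695337 per library. IRF1, the targeted gene, had normalized counts of 785 and 738 in the sh-NC libraries and 429.7 and 432 in the sh-IRF1 libraries, so 56.6% of the control level remained. In limma IRF1 stood at -0.82 on the log2 scale (standard error 0.0904, adjusted p = 1.69e-10), with other genes covering 22.9% of its exonic bases. Of the 11 myelomonocytic markers fixed for the check of the cell line, all 11 were detected, with PTPRC (CD45) at 2239 to 3220 normalized counts, while CD14 reached only 1.87 to 42.1. Of the 7 T and NK cell markers 3 were analysed, and CD3G and CD8A lay between 0.00 and 6.16 normalized counts. NKG7, by contrast, had 968 to 1077 in these libraries. The erythroid and megakaryocytic markers summed to at most 3.08, and the epithelial, stromal and endothelial markers to 366 and 273 in sh-NC and 409.8 and 365 in sh-IRF1, nearly all from KRT8 and KRT18. The summed level of the B cell markers was 101 and 130.4 in sh-NC and 254 and 315 in sh-IRF1, and CD79A accounted for 50.3 and 43.1 of it in sh-NC and for 190.0 and 250.2 in sh-IRF1. The part of these markers in the results below was not tested.

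Most of the integrin and adhesion receptor genes were higher after IRF1 knockdown. At an adjusted p under 0.05 (limma on log2(normalized count + 1), with Benjamini-Hochberg adjustment over the 14120 genes tested), 7 of the 10 genes were higher, against 20.3% of all genes tested, and 2 were lower, against 21.9%. The genes PECAM1, ITGAX, ITGB7, ITGA5 and ITGAM passed the test and rose by more than 0.5 on the log2 scale, so 5 of 10 met this stricter rule, compared with 8.27% of all genes. In the other direction, 0 of the 10 genes passed with a fall beyond -0.5, compared with 7.56% of all genes. ITGB2 and ITGA4 rose by less, ITGB1 and CD44 fell, and ITGAL, the most abundant of the set, did not pass the test. Over the set the log2 fold change had a median of 0.44, beside -0.00 over all genes tested. All 10 genes lay above the filter on low values in both groups, since the lowest value of any of them was 118 normalized counts. These counts describe genes picked by name with results of these data known and are not a test of the set.

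**Figure D1:**
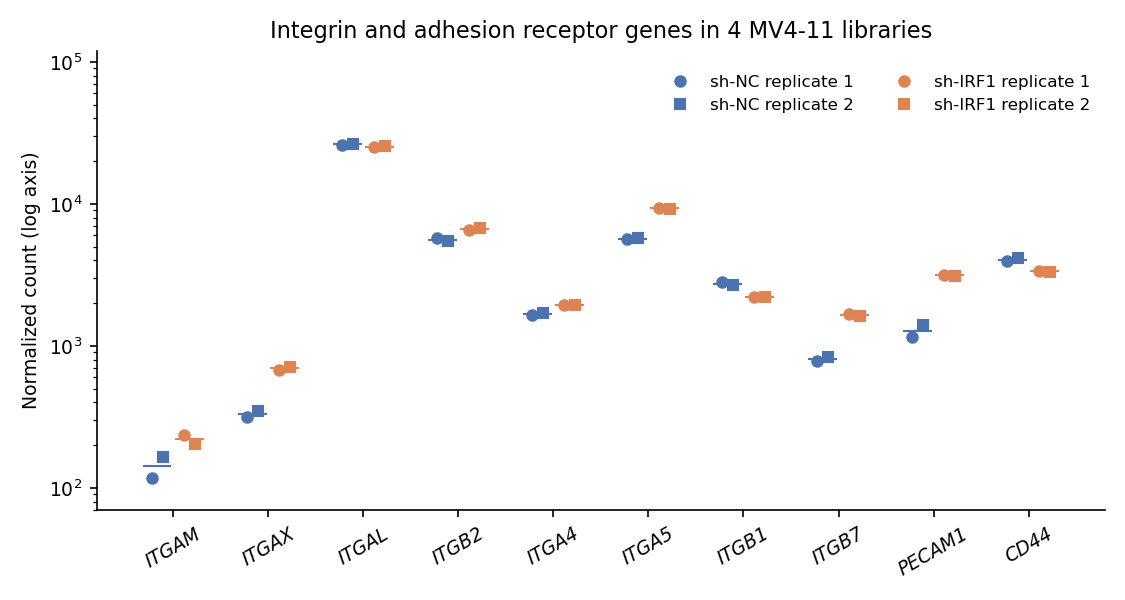
Normalized count (log axis) of each of the 10 genes in the 4 libraries, with blue for sh-NC, orange for sh-IRF1, circles for replicate 1, squares for replicate 2 and a line at the group mean (n = 2). ITGAL lay at 25099 or higher in every library and ITGAM at 236 or lower, and the groups were furthest apart for PECAM1.

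The sh-NC and sh-IRF1 values did not overlap for any of the 10 genes. Both sh-IRF1 libraries lay above both sh-NC libraries for 7 genes, as they did for 34.2% of all genes tested, and below them for 3 genes, ITGAL included, as for 35% of all genes. The smallest p that an exact permutation test of a single gene allows with 2 libraries in each group is 0.333, and the calls therefore depend on limma's pooling of the spread over genes. In such bulk RNA, a change in the number of cells expressing a gene and a change in RNA per cell cannot be told apart.

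**Figure D2:**
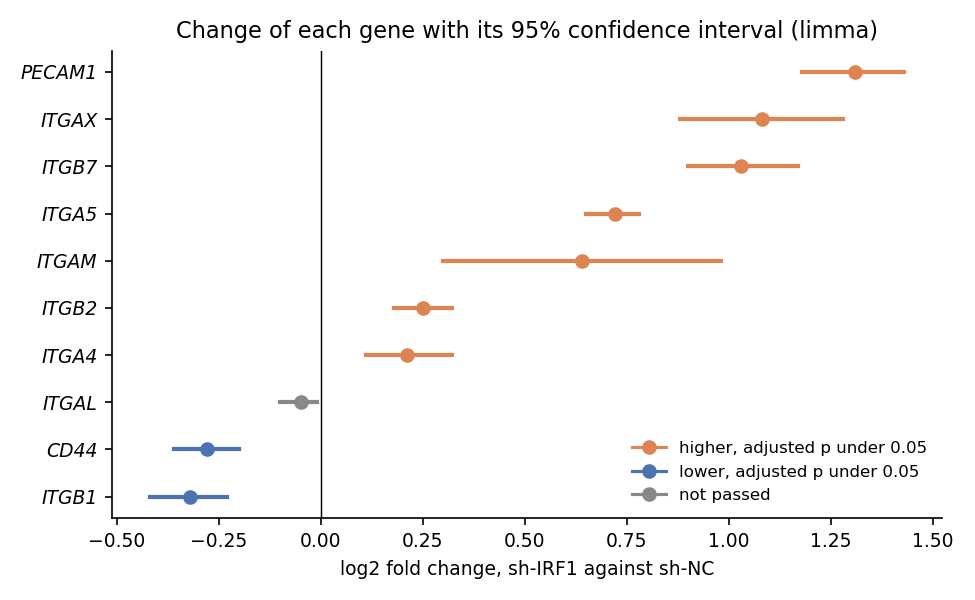
Change of each gene in sh-IRF1 relative to sh-NC on the log2 scale (point) with its 95% confidence interval from limma (bar, 2 libraries in each group). PECAM1, ITGAX and ITGB7 had values above 1, and ITGB1 and CD44 had intervals that ended at -0.23 and -0.20.

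The sequence before the start is given for genes whose upstream bases lie outside annotated exons. The set of RefSeq promoters used here (GRCh38.p14) held 6 of the 10 genes. It had no entry for ITGAX, ITGAL, ITGB2 and PECAM1, which are named only. The RefSeq start is not always the outermost one. Of the 250 bases before it, GENCODE 44 places 250 in exons for CD44, 184 for ITGA4, 139 for ITGB1, 31 for ITGB7, 8 for ITGAM and 0 for ITGA5. The bases before the first such exon are shown for the 3 genes with a run of at least 200, all of which were called higher. They are written 5′ to 3′ on the strand of the gene, which is plus for ITGAM (chr16:31259725-31259966) and minus for ITGB7 (chr12:53207283-53207501) and ITGA5 (chr12:54419267-54419516). Capitals mark each match of GAGGAAG, a core sequence of sites for the myeloid factor PU.1, or of the GC box GGGCGG, on either strand.
ITGAM: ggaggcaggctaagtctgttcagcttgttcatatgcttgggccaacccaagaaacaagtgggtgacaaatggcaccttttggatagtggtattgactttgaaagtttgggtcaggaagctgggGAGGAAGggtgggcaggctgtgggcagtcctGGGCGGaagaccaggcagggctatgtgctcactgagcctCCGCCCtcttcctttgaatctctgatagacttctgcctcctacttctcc
ITGB7: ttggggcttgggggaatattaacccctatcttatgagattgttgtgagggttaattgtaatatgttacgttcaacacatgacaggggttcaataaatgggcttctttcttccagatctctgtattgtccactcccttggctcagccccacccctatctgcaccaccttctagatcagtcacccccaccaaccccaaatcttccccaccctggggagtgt
ITGA5: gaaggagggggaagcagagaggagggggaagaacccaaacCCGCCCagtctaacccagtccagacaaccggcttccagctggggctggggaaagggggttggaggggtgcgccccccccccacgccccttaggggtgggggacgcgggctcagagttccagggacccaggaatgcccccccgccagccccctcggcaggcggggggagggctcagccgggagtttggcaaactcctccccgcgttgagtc

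In windows reaching from 250 bases before to 50 bases after the start, the PU.1 letters were present in 2 of the 6 genes, ITGAM and ITGB7, and in 13.6% of 35116 promoters. In ITGAM the match lay from position -127 to -121 relative to the RefSeq start. ITGB7 held a match on the opposite strand from -29 to -23, inside a GENCODE exon and so beyond the bases shown, and another after the start from 25 to 31. The GC box was present in 4 of the 6 genes (ITGAM, ITGA5, ITGB1 and CD44) and in 45% of all promoters, with 3 matches in ITGB1, 2 of them inside GENCODE exons, and both matches of CD44 inside a GENCODE exon. The paired motif of the interferon regulatory factors, searched on both strands as GAAA followed by any 2 bases and a further GAAA, was present in 0 of the 6 windows and in 3.57% of all promoters. The TATA motif, searched as TATAAA, was present in 0 of the 6 windows and in 11.5% of all promoters. A match of letters is a description of the window and says nothing of binding.

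Among the beta2 integrins, the alpha partners changed to different degrees. ITGAX, which encodes alphaX (CD11c), a complement receptor subunit of monocytes and dendritic cells, had 313 and 347 normalized counts in sh-NC and 681 and 710.2 in sh-IRF1. The sh-IRF1 level was 211% of the control level (log2 fold change 1.08, standard error 0.0995, adjusted p = 1.1e-12), and both knockdown libraries stood well apart from both controls. ITGAM, encoding alphaM (CD11b), a subunit that rises as myeloid cells mature, had 118 and 166 normalized counts in sh-NC and 236 and 202 in sh-IRF1. The groups did not overlap, but the replicates were further apart than for any other gene of the set relative to their level (SD 34.2 around a mean of 142 in sh-NC and 23.6 around 219 in sh-IRF1, n = 2 each). ITGAM rose by 0.64 on the log2 scale (standard error 0.17, adjusted p = 0.0019). The value was 0.39 without sh-NC replicate 1 (adjusted p = 0.08) and 0.53 without sh-IRF1 replicate 1 (adjusted p = 0.0882), so the call for ITGAM rested on these libraries.

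The common beta2 subunit gene ITGB2 (CD18), which every one of these alpha subunits needs to reach the surface, rose by less than ITGAX. It had 5729 and 5456 normalized counts in sh-NC and 6594 and 6724 in sh-IRF1, or 119% of the control level (log2 fold change 0.25, standard error 0.0352, adjusted p = 5.8e-08). ITGAL, encoding alphaL (CD11a) of LFA-1, the receptor for ICAM-1, had 26070 and 26380 normalized counts in sh-NC and 25099 and 25472 in sh-IRF1. Both knockdown libraries lay slightly below both controls, at 96.4% of their level. The log2 fold change of -0.05 (95% confidence interval -0.10 to -0.01, adjusted p = 0.0663) did not pass the test, and ITGAL was the gene of the set with the smallest change. In GENCODE 44 on GRCh38, the 3 alpha genes lie on the plus strand of chromosome 16, with ITGAL (ENSG00000005844) at 30472658-30523567, ITGAM (ENSG00000169896) at 31259967-31332892 and ITGAX (ENSG00000140678) at 31355134-31382999. ITGAM and ITGAX are 22241 bases apart, and ITGAL ends 736 kb before ITGAM. ITGB2 (ENSG00000160255) lies on the minus strand of chromosome 21 at 44885953-44931989.

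Among the subunits of the fibronectin and VCAM-1 receptors, the alpha genes rose and the beta1 gene fell. ITGA5, encoding alpha5 (CD49e), had 5638 and 5721 normalized counts in sh-NC and 9429 and 9222 in sh-IRF1. This was 164% of the control level (log2 fold change 0.72, standard error 0.0327, adjusted p = 3.01e-23), with replicates that differed far less than the groups. ITGA4, encoding alpha4 (CD49d), had 1650 and 1698 normalized counts in sh-NC and 1933 and 1951 in sh-IRF1 (log2 fold change 0.21, standard error 0.0531, adjusted p = 0.000892). ITGB1, encoding the beta1 subunit (CD29) shared by both, had 2796 and 2702 normalized counts in sh-NC and 2207 and 2194 in sh-IRF1. Its level fell to 80.0% of the control (log2 fold change -0.32, standard error 0.0469, adjusted p = 1.69e-07). In the annotation 26.4% of the exonic bases of ITGA4 are shared with CERKL on the other strand, and the kit named in the labels does not mark strand. CERKL itself had 459 and 409.8 normalized counts in sh-NC, against 448 and 430.1 in sh-IRF1, and did not pass (log2 fold change 0.02, adjusted p = 0.913). The pseudogene ITGB1P1 had values amounting to 2.37% of those of ITGB1. ITGA5 (ENSG00000161638) lies at 54395261-54419266 on chromosome 12 and ITGB1 (ENSG00000150093) at 32887273-33005792 on chromosome 10, both on the minus strand, and ITGA4 (ENSG00000115232) lies on the plus strand of chromosome 2 at 181457202-181538940.

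ITGB7, the other partner of alpha4, moved opposite to ITGB1. It had 779 and 835 normalized counts in sh-NC and 1681 and 1623 in sh-IRF1, that is 205% of the control level (log2 fold change 1.03, standard error 0.0656, adjusted p = 4.32e-18). Both knockdown libraries lay above both controls, and the confidence interval of ITGB7 (0.90 to 1.17) lay within that of ITGAX (0.88 to 1.28). ITGB7 (ENSG00000139626) lies on the minus strand of chromosome 12 at 53191323-53207282. Of its exonic bases, 42.3% are shared with ZNF740 on the other strand, so reads from the shared part cannot be assigned with certainty. ZNF740 had 872 and 865 normalized counts in sh-NC, against 860.4 and 914 in sh-IRF1, and did not pass (log2 fold change 0.03, adjusted p = 0.776).

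PECAM1 (CD31), an immunoglobulin-family receptor of leukocytes, platelets and endothelium that binds itself and carries inhibitory tyrosine motifs, had the largest log2 fold change of the set. It had 1159 and 1399 normalized counts in sh-NC and 3178 and 3120 in sh-IRF1, or 246% of the control level. Both sh-IRF1 libraries exceeded both controls by far more than the gap between the controls (log2 fold change 1.31, standard error 0.06, adjusted p = 8.1e-20), and 3.87% of all genes tested had a larger change in either direction. Over all alternatives tried, the value lay between 1.17 and 1.44. CD44, the hyaluronan receptor, had 3982 and 4130 normalized counts in sh-NC and 3348 and 3338 in sh-IRF1. It fell to 82.4% of the control level (log2 fold change -0.28, standard error 0.0407, adjusted p = 1.61e-07), and the values sum all of its splice forms. PECAM1 (ENSG00000261371) lies on the minus strand of chromosome 17 at 64319415-64413776 and CD44 (ENSG00000026508) on the plus strand of chromosome 11 at 35138882-35232402. Of the endothelial markers, VWF had 21.5 and 15.4 normalized counts in sh-NC and 12.9 and 3.75 in sh-IRF1 (adjusted p = 0.11), and CDH5 was not analysed here.

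To compare levels between genes, normalized counts were divided by exonic length in kilobases, taken over all annotated exons of a gene. This length was 14561 bases for ITGB1, 10654 for ITGA4 and 4451 for ITGB7, and the length of the expressed transcripts was not measured. The order of the genes and their shares therefore depend on the annotation, whereas the change of a single gene between groups does not. In sh-NC, the level per kilobase was highest for ITGAL, at 2659 ± 22.2, followed by ITGA5 at 769 ± 7.98 and ITGB2 at 766 ± 26.4 (SD, n = 2 each). ITGA5 and ITGB2 did not differ beyond their spread. CD44 followed at 406 ± 10.5 per kilobase. Next in sh-NC came ITGB1 at 189 ± 4.56, ITGB7 at 181 ± 8.97, PECAM1 at 165 ± 21.9 and ITGA4 at 157 ± 3.14 per kilobase, and neighbours in this order lay within the sum of their SDs of each other. ITGAX, at 46.6 ± 3.43, and ITGAM, at 25.0 ± 6.02, had the lowest levels per kilobase. By the mean over all libraries of both groups, ITGAL exceeded 98.7% of the genes tested. In sh-IRF1 the order changed, with PECAM1 at 407 ± 5.30 and ITGB7 at 371 ± 9.25 above CD44 at 335 ± 0.691, and ITGA5 at 1263 ± 19.8 above ITGB2 at 912 ± 12.6 per kilobase (SD, n = 2 each).

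The shares of the subunits differed between the groups. Of the summed per-kilobase level of ITGB1, ITGB2 and ITGB7, ITGB7 made up 15.2% and 16.7% in the sh-NC libraries and 26.4% and 25.4% in the sh-IRF1 libraries. The ITGB1 share was 16.7% and 16.6% in sh-NC and 10.6% and 10.5% in sh-IRF1. On the annotated exonic lengths, ITGB1 and ITGB7 had like shares in the controls and ITGB7 had the larger share in both knockdown libraries. How these 2 shares compare within a library depends on those lengths. ITGB2 remained the main beta subunit gene by this measure, with 63.1% to 68.1% in all 4 libraries. Among the alpha partners of beta2 within the set, ITGAL made up 94.9% to 97.6% of the summed level in every library. The ITGAX share was 1.63% and 1.78% in sh-NC and 3.59% and 3.69% in sh-IRF1. The summed per-kilobase level of the beta genes was 1152 and 1121 in sh-NC and 1433 and 1436 in sh-IRF1, and that of ITGA4 and ITGA5 was 919 and 934 against 1459 and 1432. The sum of ITGAL, ITGAM and ITGAX, in contrast, overlapped between the groups, at 2708 and 2753 in sh-NC and 2682 and 2718 in sh-IRF1.

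**Figure D3:**
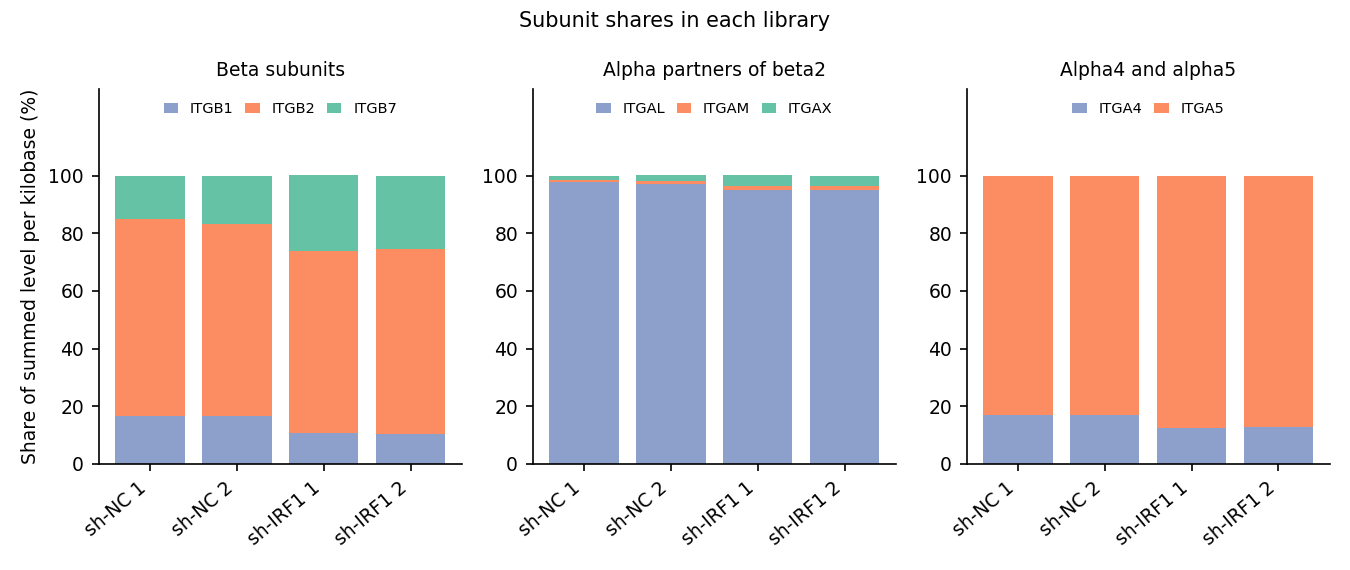
Share (%) of the summed level per kilobase taken by each subunit gene in each of the 4 libraries. Shown are the beta subunits of the set (left), the alpha partners of beta2 within the set (middle) and alpha4 and alpha5 (right). The shares depend on the annotated exonic lengths of the genes. The ITGB7 share was 15.2% and 16.7% in sh-NC and 26.4% and 25.4% in sh-IRF1, and ITGAL filled nearly the whole of the middle bars.

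The ratio of an alpha gene to a beta gene, per kilobase, was compared for 6 pairs within the set. The size of a ratio depends on the annotated exonic lengths and is not a measure of subunit proportions. For ITGA4 and ITGB7, 26.4% and 42.3% of these bases are also shared with other genes. The difference of a ratio between groups does not depend on the lengths. ITGA5 stood at 3.98 and 4.18 times ITGB1 in sh-NC and at 8.42 and 8.29 times in sh-IRF1, a difference of 1.04 on the log2 scale. The ratio of ITGA4 to ITGB1 was 0.807 and 0.859 in sh-NC and 1.20 and 1.21 in sh-IRF1. In contrast, the ratio of ITGA4 to ITGB7 was 0.886 and 0.849 in sh-NC and 0.480 and 0.502 in sh-IRF1. ITGAL to ITGB2 was 3.37 and 3.58 in sh-NC against 2.82 and 2.80 in sh-IRF1, and ITGAX to ITGB2 was 0.0563 and 0.0656 against 0.107 and 0.109. For these 5 pairs the groups did not overlap, and the exact two-sided permutation test gave its smallest possible p of 0.333 (0.4 adjusted over the 6 pairs). The ratio of ITGAM to ITGB2 overlapped between groups, at 0.0264 and 0.0391 in sh-NC and 0.0459 and 0.0386 in sh-IRF1 (exact permutation p = 0.667).

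Genes that work beside these receptors were examined in 6 lists of other integrin subunits, activators, ligands, adhesion receptors, membrane partners and CD44-related genes. Of 116 listed genes 86 could be tested. At an adjusted p under 0.05, 30 were higher (34.9%, against 20.3% of all genes) and 23 were lower (26.7%, against 21.9%), with a median log2 fold change of 0.05. The lists were mixed in direction. Among the other integrin subunits, 2 of 10 tested genes were higher and 4 lower. ITGA7, a laminin-binding alpha subunit, rose from 1044 and 1027 to 2214 and 2117 normalized counts (log2 fold change 1.06, adjusted p = 1.82e-20), and ITGA6 rose from 125 and 85.3 to 202 and 196 (log2 fold change 0.94, adjusted p = 4.25e-05). ITGAV and ITGB5, which together form a vitronectin receptor, both fell, ITGAV to 63.2% and ITGB5 to 63.0% of the control level (adjusted p = 2.12e-05 and 3.52e-07).

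Among 28 activators and adaptors of integrins, 12 were higher, 6 lower and 10 did not pass, with a median log2 fold change of 0.10. TLN1 and FERMT3, which encode talin and the leukocyte kindlin that bind the beta tails, each stood at a log2 fold change of 0.14 (adjusted p = 6.19e-06 and 0.000503). FLNA, a filamin that links beta tails to actin, rose from 33403 and 33314 to 50605 and 50797 normalized counts (log2 fold change 0.60, adjusted p = 4.42e-28). PTK2B, a kinase of adhesion signalling, rose to 132% of the control level (adjusted p = 6.91e-13). In contrast PTK2, another kinase of this list, fell from 94.4 and 91.4 to 18.9 and 22.5 normalized counts (log2 fold change -2.12, adjusted p = 1.85e-07). RAP1B and RASGRP2 had the smallest p among the activators and adaptors that were lower. RAP1B, a small GTPase that recruits talin to integrins, fell from 2707 and 2625 to 1410 and 1360 normalized counts (log2 fold change -0.94, adjusted p = 2.79e-20). RASGRP2, the exchange factor that activates RAP1 in blood cells, fell to 63.4% of the control level (log2 fold change -0.66, adjusted p = 3.47e-14). RAP1A had 1277 and 1339 normalized counts in sh-NC and 1143 and 1214 in sh-IRF1 and did not pass (adjusted p = 0.0518).

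Of 9 ligands tested, 1 was higher, 2 were lower and 6 did not pass (median log2 fold change 0.13). ICAM1, a ligand of LFA-1 and Mac-1, fell from 657 and 611 to 396 and 409 normalized counts (log2 fold change -0.65, adjusted p = 1.91e-07), with 25.4% of its exonic bases shared with other genes. ICAM3, another ligand of LFA-1, rose from 12.3 and 24.7 to 122 and 87.1 normalized counts (log2 fold change 2.50, adjusted p = 2.2e-08), but 75.4% of its exonic bases lie opposite an unnamed gene, so its reads are uncertain. ICAM5 fell from 53.3 and 35.9 to 8.95 and 10.3 (adjusted p = 0.000188). FN1, the gene of fibronectin, had only 19.5 to 30.9 normalized counts and did not pass (adjusted p = 0.296), and VCAM1 was not analysed here.

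Of 14 selectins, mucins and other adhesion receptors tested, 6 were higher and 4 lower (median log2 fold change 0.02). SELPLG, which encodes the selectin ligand PSGL-1, rose from 903 and 965 to 1879 and 1963 normalized counts (log2 fold change 1.04, adjusted p = 3.52e-19), and SPN (CD43), an abundant leukocyte mucin, rose to 146% of the control level (adjusted p = 8.62e-22). EMB, encoding embigin, fell to 53.9% (adjusted p = 3.6e-27) and ADGRE5 (CD97) to 75.1% of the control level (adjusted p = 8.54e-13).

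Of 12 tetraspanins and membrane partners, 6 were higher and 3 lower (median log2 fold change 0.13). The tetraspanin gene CD82 rose from 929 and 919 to 2472 and 2439 normalized counts (log2 fold change 1.41, adjusted p = 3.35e-25), CD63 rose to 142% and CD47, an integrin-associated protein, to 128% of the control level (adjusted p = 2.22e-13 and 1.19e-08). In the other direction, CD151, a tetraspanin that binds laminin-binding integrins, fell to 68.9%, CD9 to 49.0% and SLC3A2 (CD98), which binds beta1 tails, to 82.3% (adjusted p = 5.69e-09, 0.00579 and 2.74e-10). Of 13 CD44 linkers, sheddases and hyaluronan enzymes tested, 3 were higher and 4 lower (median log2 fold change -0.11). MMP9, a gelatinase that can dock on CD44, fell from 209 and 193 to 28.8 and 11.2 normalized counts (log2 fold change -3.40, adjusted p = 2.08e-13, with 18.4% of its exonic bases shared), and HMMR, a second hyaluronan receptor, fell to 79.1% (adjusted p = 2.21e-07). MMP14 and ADAM17, proteases that can cleave CD44 at the surface, rose to 151% and 139% (adjusted p = 1.12e-20 and 6.58e-07), and 11.7% of the exonic bases of ADAM17 are shared. ADAM10, another protease of this list, fell to 92.5% of the control level (adjusted p = 0.0266). MSN, which ties the CD44 tail to actin, had a log2 fold change of 0.08 (adjusted p = 0.00472), and EZR, of the same family, did not pass at 0.11 (adjusted p = 0.0588).

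**Figure D4:**
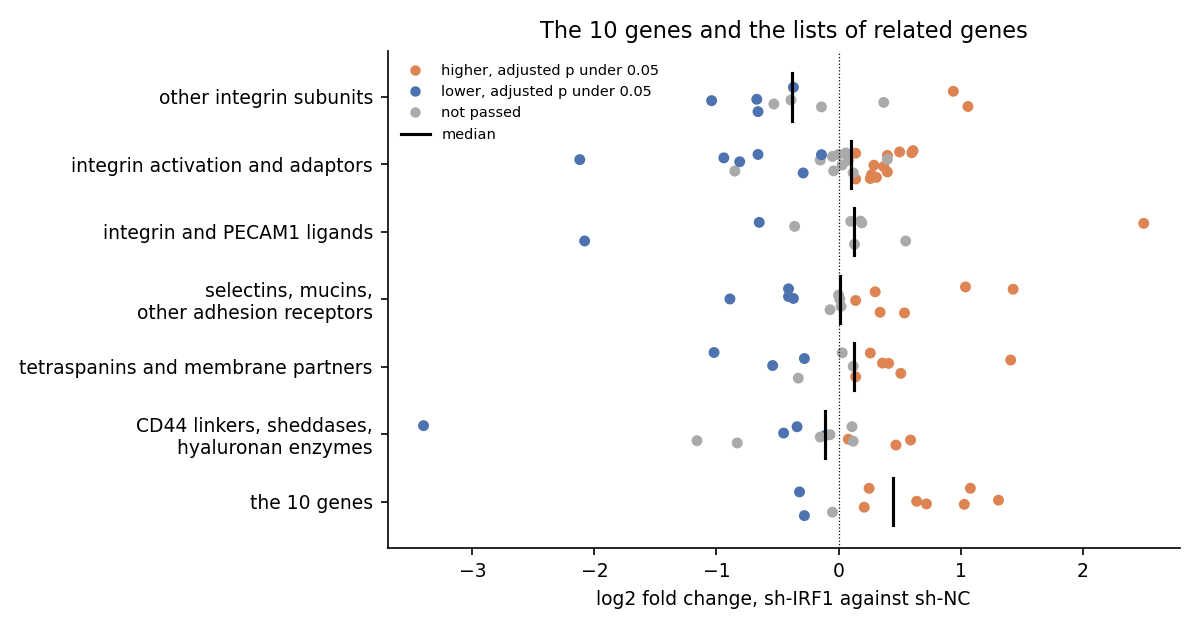
log2 fold change of each tested gene in the 6 lists of related genes and of the 10 integrin and adhesion receptor genes, coloured by its call at an adjusted p under 0.05, with a black line at the median of each list. The 10 genes had a median of 0.44, and the lists had medians from -0.38 for the other integrin subunits to 0.13.

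The myelomonocytic markers moved in both directions beside the integrin genes. LYZ, encoding lysozyme, had 1824 and 1785 normalized counts in sh-NC and 3276 and 3218 in sh-IRF1 (log2 fold change 0.85, adjusted p = 3.83e-20), with 34.7% of its exonic bases opposite another gene. MPO, encoding myeloperoxidase, fell from 477 and 443 to 185 and 158 (log2 fold change -1.42, adjusted p = 7.78e-13), and CD14, a monocyte receptor, fell from 38.0 and 42.1 to 10.9 and 1.87 (log2 fold change -2.81, adjusted p = 8.9e-05). PTPRC fell to 71.6% of the control level (adjusted p = 2.15e-12), FLT3 to 72.9% and CSF1R to 87.8% (adjusted p = 2.75e-19 and 0.0357). CSF3R rose to 135% and SPI1 to 113% (adjusted p = 6.59e-08 and 6.46e-05). Over the 11 markers, 3 were higher (27.3%, against 20.3% of all genes tested) and 5 were lower (45.5%, against 21.9%). Their median log2 fold change was -0.11, while their summed level ran from 33290 to 33481 in sh-NC and from 29723 to 29897 in sh-IRF1. The part of these markers in the results for the integrin genes was not tested.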

How the data were processed

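RNA-Seq of 2 sh-NC and 2 sh-IRF1 libraries of MV4-11 cells was analysed. The libraries were made from total RNA with an Illumina TruSeq kit. The submitters' processing notes name HISAT2 (2.0.5) and hg38, and the methods name FPKM and DESeq2. The counting tool, annotation and use of strand are not given in the sources used here. The authors deposited a normalized signal in which reads per gene appear to have been scaled by a single factor for each library. This reading rests on the values, which were whole multiples of the smallest value above 0 of their column (100%, largest distance 4.43e-05 of a step). All 4 columns were used, and the table held 0 further ones.

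log2(value + 1) was tested with limma (3.58.1, R 4.3.3, variance trend and robust shrinkage) over 14120 of 23622 genes that reached 10 in 2 or more libraries, with Benjamini-Hochberg adjustment. A gene was called at an adjusted p under 0.05. The script was tested on simulated data. Symbols matched 23456 identifiers. Positions, exonic lengths and shared exonic bases came from GENCODE 44 on GRCh38, which may differ from the annotation behind the counts. Overlap above 10% was taken as uncertain for named genes.

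The genes and lists were chosen with earlier results of these data known. Named genes were the 10 members, IRF1, in each list the 2 genes with the smallest p in each direction among those called, and partner genes set by name (ICAM1, ICAM3, VCAM1, FN1, TLN1, FERMT3, RAP1A, RAP1B, CD47, CD9, MSN, EZR, SELPLG). Another partner gene is not reported here. CERKL, ZNF740, ITGB1P1, ADAM10, PTK2 and the single marker genes were named after their values were seen. Replicates differed by more than sampling noise (chi-square per gene 2.93 in sh-NC and 2.47 in sh-IRF1, over genes with at least 20 reads in a pair). Alternatives covered the scaling, filter, pseudocount, robust setting, minimum fold change, a replicate block and leaving out each library.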

Additional observations from a re-analysis of the deposited data

How the results depend on the processing

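Over 13 alternatives of the scaling, filter, pseudocount, robust setting, replicate block and libraries used, 124 of 130 values of the 10 genes kept their direction and their side of the threshold, and 0 changed direction. The exceptions were ITGAM, which lost its call without sh-NC replicate 1 (0.39) and without sh-IRF1 replicate 1 (0.53), and ITGAL, which passed with an unweighted trimmed mean of M values (-0.06, adjusted p = 0.0331), without a filter (-0.05, adjusted p = 0.035), with the replicate block (-0.05, adjusted p = 0.0499) and without sh-NC replicate 1 (-0.06, adjusted p = 0.0387). The cause was not tested. With a log2 fold change beyond 0.5 required, 5 of the 10 genes were called higher and 0 lower, the counts over all genes were 1168 higher and 1067 lower, and those over the related genes were 12 higher and 13 lower, fewer by construction. Same-numbered libraries share only a number (correlation of their deviations -0.0154 over genes), and with the replicate block 2903 genes were called higher and 3147 lower, against 2861 and 3092 without it. Scaling by the library total gave 3433 higher and 2645 lower (56.5% of calls higher, against 48.1%), so the balance of calls over all genes turned, while 7 of the 10 genes were called higher and 2 lower there too. With a library left out in turn, 2037 to 2685 genes were called higher and 2405 to 2744 lower (6 to 7 and 2 to 3 of the 10 genes, 26 to 31 and 19 to 23 of the related genes), and IRF1 stayed between -0.86 and -0.78. The planned scaling was run on normalized values without weights, and the planned edgeR and DESeq2 tests were not run. A check made before recovering reads turned down sh-IRF1 replicate 1, because its smallest step is close to 1. Its values were nonetheless whole multiples of that step (largest distance 3.74e-05), as in the other libraries. With 2 libraries in each group the spread of a single gene is poorly known.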
